A study of Mus musculus with 2 samples.

Results

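The 10 genes described here encode the constant regions of the 8 mouse antibody heavy chains (Ighm, Ighd, Ighg3, Ighg1, Ighg2b, Ighg2c, Ighe and Igha), the joining chain of secreted IgA and IgM (Jchain) and the epithelial receptor that carries these antibodies into the gut lumen (Pigr). They were chosen by name, and all 10 were found among the 31253 genes of the count matrices. Whole intestine was dissociated into single cells and sequenced as 2 droplet libraries, 1 per mouse. The RA library came from a mouse of genotype WT on standard chow, a group that the design text of this series on rheumatoid arthritis calls CIA, commonly short for collagen-induced arthritis. The Butyrate library came from a mouse of genotype WT on a diet with 1% butyrate, a short-chain fatty acid, and its labels do not say whether that mouse was arthritic. Strain, age and sex are not given in the labels. With 1 mouse per diet no test between diets was possible, no p-value is given, and every interval below is an exact 95% interval that covers counting error only.

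The RA library held 10140 barcodes with 61912439 unique molecular identifiers (UMIs, counted RNA molecules), and the Butyrate library 9959 barcodes with 67894477. A barcode counted as a cell from 500 UMIs and 250 genes upward, if mitochondrial genes took no more than 25%. This left 6909 cells in the RA library (median 4712 UMIs) and 8247 in the Butyrate library (median 5141 UMIs). The mitochondrial limit alone was exceeded by 29.95% of RA and 15.4% of Butyrate barcodes. The libraries shared 27 barcode sequences, of which the RA library kept 20 and the Butyrate library 25. Plasma cells were cells with at least 20 Jchain UMIs and at least 1 of Mzb1, a chaperone of antibody assembly. B cells had at least 1 UMI of Cd79a, a part of the B cell receptor, and fewer than 20 of Jchain. Epcam cells had at least 1 UMI of Epcam, an adhesion protein of epithelia. Where values are given in pairs, the RA value comes first.

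A B cell first makes IgM and IgD, whose constant regions are spliced from 1 long transcript, and can later switch by recombination to a constant region further along the locus. Plasma cells of the gut wall mostly secrete IgA as dimers held together by the J chain. The polymeric immunoglobulin receptor, the product of Pigr, binds these dimers at the base of epithelial cells, carries them across and is cut to release them as secretory IgA, which coats gut bacteria.

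In GRCm38 the 8 heavy-chain genes lay on the minus strand of chromosome 12 and were annotated as immunoglobulin constant genes. In the direction of transcription the order was Ighm (113418558 to 113422730), Ighd (113406604 to 113416324), Ighg3 (113356224 to 113361232), Ighg1 (113325240 to 113330523), Ighg2b (113302965 to 113307933), Ighg2c (113285325 to 113288932), Ighe (113269260 to 113273248) and Igha (113254830 to 113260236). Ighd began 2233 bases after Ighm, and the widest gap, 45371 bases, lay between Ighd and Ighg3. Igha, the class of the gut, was the last of the 8 genes. Jchain (chromosome 5, 88519809 to 88527891, minus strand) and Pigr (chromosome 1, 130826684 to 130852249, plus strand) were annotated as protein coding.

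The end of the secreted form shows which classes can be joined by the J chain. The last 90 coding bases of the secreted transcripts in GENCODE M21 (GRCm38, minus strand of chromosome 12) are printed 5′ to 3′, with the bases used only by the secreted form and the stop codon in capitals.
Igha (chr12:113258768-113258857): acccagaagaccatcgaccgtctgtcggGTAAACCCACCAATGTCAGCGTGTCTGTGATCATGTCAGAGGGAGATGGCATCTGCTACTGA
Ighm (chr12:113420867-113420956): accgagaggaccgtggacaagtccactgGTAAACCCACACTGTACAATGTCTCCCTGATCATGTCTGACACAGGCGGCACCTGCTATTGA
Ighg1 (chr12:113328976-113329065): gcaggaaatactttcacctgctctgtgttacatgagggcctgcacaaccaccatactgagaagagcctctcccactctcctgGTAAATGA
Ighg2b (chr12:113306389-113306478): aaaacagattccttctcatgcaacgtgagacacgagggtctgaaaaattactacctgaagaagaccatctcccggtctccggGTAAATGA
Ighg2c (chr12:113287389-113287478): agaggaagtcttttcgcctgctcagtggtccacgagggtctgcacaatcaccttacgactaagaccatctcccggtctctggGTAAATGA
Ighg3 (chr12:113359665-113359754): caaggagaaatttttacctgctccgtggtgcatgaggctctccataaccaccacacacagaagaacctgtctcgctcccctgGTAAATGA
Igha and Ighm each had 59 secreted-only coding bases before the stop codon, and in both the codon before the last was TGC, the cysteine to which the J chain binds. The 4 IgG genes had 5 such bases and no such codon there.

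The IgG sequences also bear on counting, because reads are assigned by sequence. Ighg2b and Ighg2c were identical at 865 of 1010 aligned coding positions (85.6%) and shared 11.4% of their 31-base words, whereas no other pair of the 6 printed genes shared more than 2.39%. Ighg1 was 74.2% to 75.4% identical to the other IgG genes, and Igha and Ighm were 47.8% identical. Over the last 323 coding bases, nearer the 3′ side that was counted, Ighg2b and Ighg2c were 76.8% identical, and Ighg1 and Ighg3 74.4%. How many reads of Ighg2b and Ighg2c could be assigned to the wrong gene was not tested, so their counts are given as uncertain between these genes.

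Plasma cells were a smaller share of the Butyrate library. They made up 105 of 6909 RA cells (1.52%, 1.24% to 1.84%) and 73 of 8247 Butyrate cells (0.885%, 0.694% to 1.11%), a ratio of 0.582 (0.426 to 0.793). Their median depths were 17901 and 18482 UMIs per cell, and their mean depths 18511.5 and 22405. The RA cells carried plasma cell markers more often: Tnfrsf17, the survival receptor BCMA, was found in 95.2% of RA and 76.7% of Butyrate cells, Sdc1 (CD138) in 88.6% and 65.8%, and Derl3, of the protein disposal machinery, in 93.3% and 78.1%. Ms4a1 (CD20), which marks B cells before they become plasma cells, was found in 15.2% and 39.7%. Mki67, of dividing cells, was found in 33.3% and 52.1%. The Butyrate gate was thus the more mixed of the 2 by these markers.

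The mixture lay mostly at low Jchain counts. With 20 to 99 Jchain UMIs there were 2, 0, 5 and 4 RA cells and 13, 8, 10 and 7 Butyrate cells in the ranges 20 to 24, 25 to 29, 30 to 49 and 50 to 99, with or without Mzb1. Ms4a1 was found in 80% to 100% of these Butyrate cells per range, and Tnfrsf17 in at most 28.6%. Above that, 39 cells of each library had 100 to 499 Jchain UMIs, and 109 RA and 49 Butyrate cells had 500 or more. Ms4a1 was still found in 23.1% of RA and 38.5% of Butyrate cells with 100 to 499 Jchain UMIs, and in 10.1% and 6.12% of those above. In these upper ranges Tnfrsf17 was found in 84.6% to 95.4% of cells. Results on plasma cells are for that reason also given for cells with at least 100 Jchain UMIs, 103 RA and 58 Butyrate cells, a threshold chosen after the data were seen.

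Nearly every plasma cell held 1 heavy-chain class. The most abundant class took a median of 99.9% of a cell's constant-region UMIs in both libraries, and at least 99% in 85 of 105 RA and 51 of 73 Butyrate cells. The lowest share was 54.3% in the RA library against 41.2% in the Butyrate library, and 2 and 6 cells lay under 80%. The genes thus sort single cells by isotype with little overlap.

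IgA cells dominated the gut plasma cells of both mice, and more so in the RA library. Igha was the most abundant class in 100 of 105 RA cells (95.2%, 89.2% to 98.4%) and in 59 of 73 Butyrate cells (80.8%, 69.9% to 89.1%). IgG classes led in 5 RA cells (4.76%, 1.56% to 10.8%), 1 with Ighg1 and 4 with Ighg2b. In the Butyrate library they led in 12 cells (16.4%, 8.79% to 27.0%), 3 with Ighg1 and 9 with Ighg2b. Ighm led in 2 Butyrate cells (2.74%, 0.334% to 9.55%) and in 0 of 105 RA cells, which allows a share of up to 2.86%. No plasma cell was led by Ighd, Ighg2c, Ighg3 or Ighe, which allows each up to 2.86% of RA and 4.11% of Butyrate cells.

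The gap in the IgA share depended on the Jchain threshold. At the threshold of 20 UMIs the difference was −14.4 percentage points (−25.2 to −4.95), at 50 it was −4.87 (−15.1 to 3.02), and at 100, where Igha led in 96.1% of RA and 89.7% of Butyrate cells, it was −6.46 (−17.2 to 1.46). At both higher thresholds the interval thus included 0. Without the rule on Mzb1, Igha led in 149 of 158 RA cells (94.3%) and 94 of 123 Butyrate cells (76.4%), and IgG in 9 and 22. Among cells with at least 20 Jchain UMIs but no Mzb1 UMI, Ighm led in 5 of 50 Butyrate cells and in 0 of 53 RA cells, which allows up to 5.66%.

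**Figure D1:**
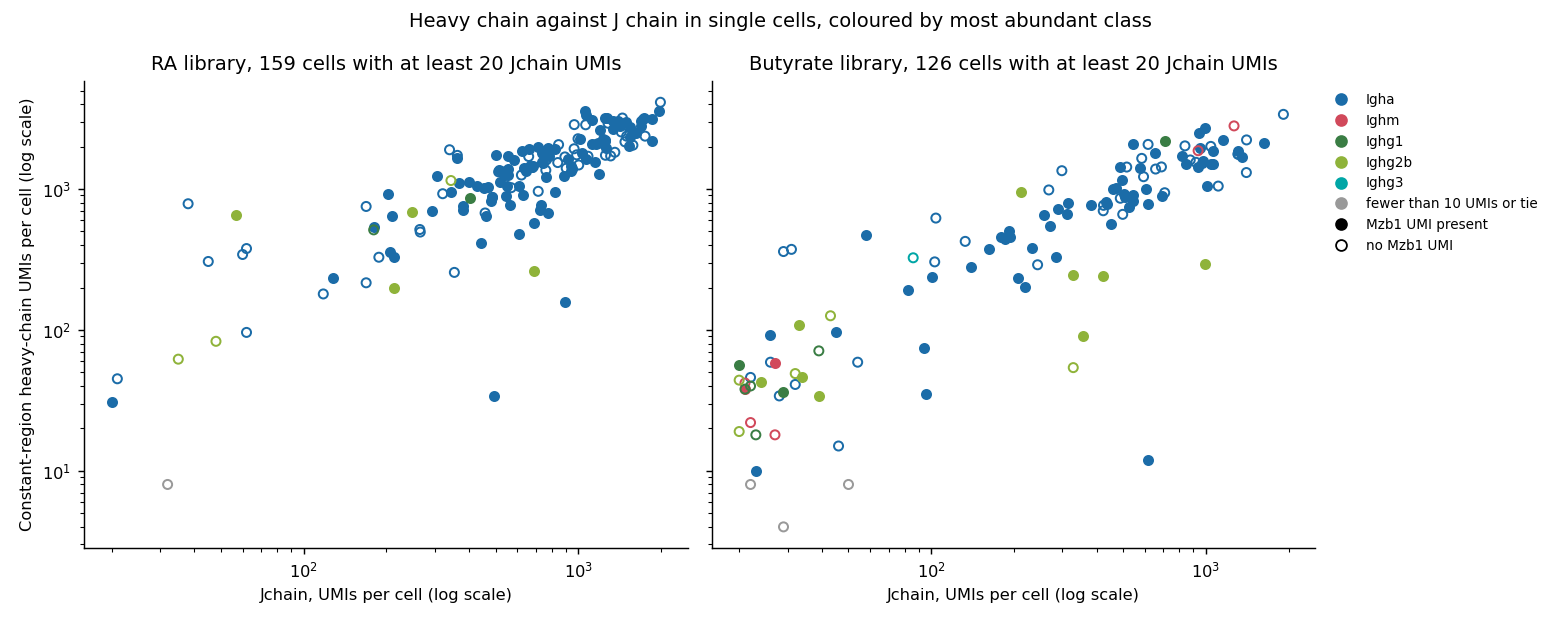
Each point is a cell with at least 20 Jchain UMIs, placed by its Jchain UMIs (x axis, log scale) and its constant-region heavy-chain UMIs (y axis, log scale) and coloured by its most abundant class, with 1 panel per library; filled points hold an Mzb1 UMI and open points none. Igha points crowd the upper right of both panels, 149 of them RA and 94 Butyrate cells, and the Butyrate panel has more points at 20 to 99 Jchain UMIs.

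Single IgA cells of the Butyrate library held less Igha RNA. In the 100 RA cells led by Igha, heavy-chain UMIs ranged from 31 to 3552 with a median of 1451.5. In the 59 Butyrate cells the range was 10 to 2731 and the median 808, so the ranges overlapped widely while the medians lay apart. Jchain had medians of 730 and 485 UMIs in the same cells. The number of heavy-chain UMIs per Jchain UMI was close, with medians of 1.95 and 1.87. Across the plasma cells Igha and Jchain UMIs went together in each library, with a Spearman correlation of 0.815 over 105 RA and 0.816 over 73 Butyrate cells. These correlations are descriptions, because both genes share each cell's depth and Jchain also defined the gate.

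Summed over the plasma cells of a library, Igha was the most abundant of the 10 genes and lower in the Butyrate library. It had 82554 CPM (counts scaled to 1000000 UMIs of the gate) in the RA library against 34612 CPM in the Butyrate library, a ratio of Butyrate to RA of 0.419 (0.415 to 0.423). Jchain, which the gate itself used, had 43839 and 21283 CPM (ratio 0.485). Immunoglobulin RNA took 38.5% of all RA and 20.5% of all Butyrate plasma cell UMIs, a share that enters the CPM of every other gene. Over the 8581 genes with at least 20 UMIs the median log2 ratio was 0.39, and 0.016 with immunoglobulin genes left out of the total. On that second scale the Igha ratio was 0.324. With all genes in the total the Igha ratio was 0.580 among cells with at least 100 Jchain UMIs and 0.509 among cells led by Igha. It was 0.526 as a mean over cells, and 0.200 without cells that held a UMI of Epcam or of the T cell gene Cd3e. Every one of these 5 ratios lay below 1. The setting without Epcam or Cd3e left fewer plasma cells, 0.362% of RA and 0.243% of Butyrate cells, against 1.52% and 0.885% in the full gate.

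The IgG genes went different ways, and few cells held most of their UMIs. Ighg1 had 499 CPM in the RA and 1420.3 CPM in the Butyrate plasma cells, a ratio of 2.85 (2.64 to 3.07). A single cell held 857 of the 970 RA UMIs and another 2175 of the 2323 Butyrate UMIs, and with the top cell of each library left out the ratio was 1.56 (1.21 to 2.01). Ighg2b had 954 and 1074 CPM (ratio 1.13, 1.05 to 1.20), which turned to 0.803 (0.733 to 0.879) without the top cells and to 0.870 with immunoglobulin genes left out of the total. Among cells with at least 100 Jchain UMIs it was 2.18 (2.02 to 2.36), and 1.87 when immunoglobulin genes were also left out of the total. The direction for Ighg2b is therefore not settled by these cells. Ighg2c had 52.5 and 154 CPM (ratio 2.94, 2.32 to 3.73), or 4.71 without the top cells. Among cells with at least 100 Jchain UMIs the ratio of Ighg1 was 3.83 and that of Ighg2c 3.78.

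The unswitched classes were rare in plasma cells. Ighm had 128 CPM in the RA and 188 CPM in the Butyrate plasma cells (ratio 1.48, 1.24 to 1.75), and 1.14 (0.962 to 1.35) with immunoglobulin genes left out of the total. Ighd had 39 UMIs in the RA gate and 4 in the Butyrate gate (ratio 0.122, 0.0316 to 0.338). Ighg3 had 15 and 12 UMIs and Ighe 2 and 4, too few to compare. Pigr, an epithelial gene, had 34 and 16 UMIs (ratio 0.559, 0.288 to 1.04).

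A gene was counted as at least 2-fold different where the ratio was 2 or more or 0.5 or less, its counting interval excluded 1, and it had at least 20 UMIs over both libraries. In plasma cells 5 of the 9 members with enough UMIs passed, Ighg1 and Ighg2c higher and Igha, Ighd and Jchain lower in the Butyrate library, beside 19.1% of all genes. Of the genes that passed, 87.8% were higher in the Butyrate library, and 61.6% with immunoglobulin genes left out of the total, where 13.6% of genes passed. On that scale Pigr also passed, at a ratio of 0.432, and without the top cells Ighg1 did not. Among cells with at least 100 Jchain UMIs 4 of 9 members passed, Ighg1, Ighg2b and Ighg2c higher and Ighd lower, beside 8.69% of all genes. Igha, at 0.580, and Jchain, at 0.671, did not pass there. In the same cells with immunoglobulin genes left out of the total, Igha did pass, at 0.496 (0.492 to 0.501). On that total Jchain, at 0.574, and Ighg2b, at 1.87, did not. Of all genes that passed at this Jchain threshold, 71.7% were higher in the Butyrate library, and 48% with immunoglobulin genes left out of the total, so the balance turned.

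**Figure D2:**
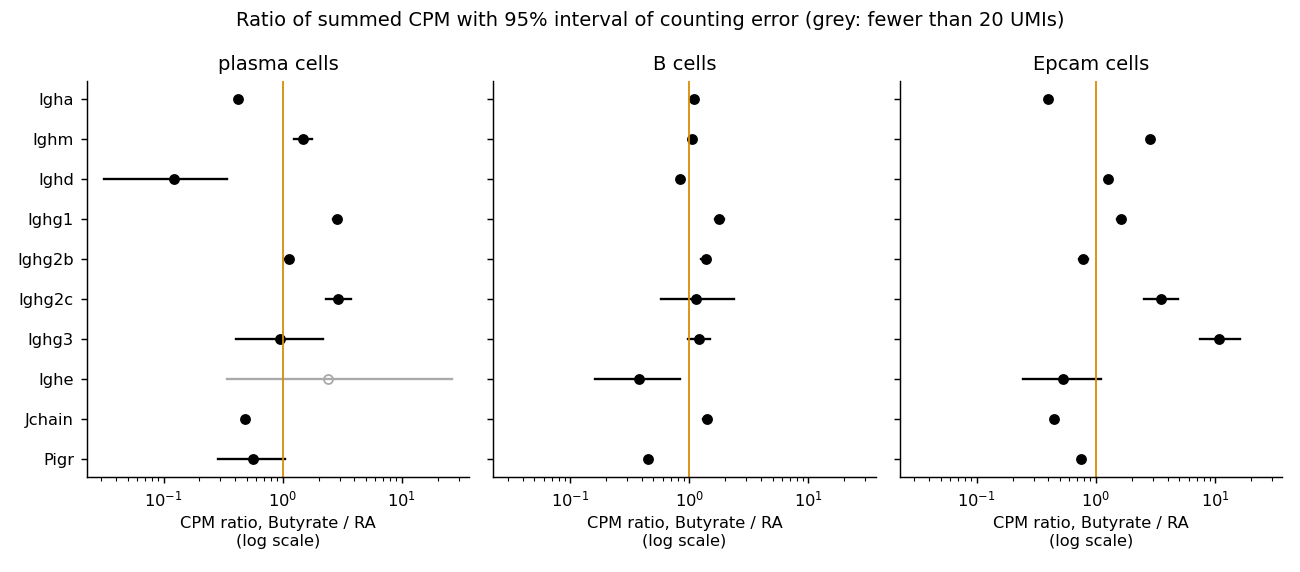
Each point is the ratio of summed CPM, Butyrate over RA (x axis, log scale), of 1 member in 1 gate, with its 95% interval of counting error; grey points have fewer than 20 UMIs over both libraries and the vertical line marks equal levels. Igha lies at 0.419 in plasma cells and near 1 in B cells, and Pigr at 0.754 in Epcam cells.

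Ighg2c counts came with Ighg2b counts in the same cells. At least 10 Ighg2c UMIs were found in 3 RA and 6 Butyrate cells, and all 9 also held at least 10 of Ighg2b. These cells held 84.4% of the RA and 85.0% of the Butyrate Ighg2c UMIs. In 8 of them there were 1.27 to 3.05 Ighg2b UMIs per Ighg2c UMI, and in 1 RA cell 39.9. The converse did not hold, since 28 of 35 RA and 61 of 71 Butyrate cells with at least 10 Ighg2b UMIs had no Ighg2c UMI.

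The same 8 cells stood apart in how much heavy-chain RNA they held. They had 0.164 to 0.934 heavy-chain UMIs per Jchain UMI, against 3.34 in the RA cell at 39.9. A cell with 995 Jchain and 5946 UMIs of the light chain gene Igkc held 174 Ighg2b and 78 Ighg2c UMIs. C57BL/6J, the strain of the reference genome, carries Ighg2c, and several other strains carry Ighg2a at that place, which was not analysed here. Since the strain is not given in the labels, whether a further gene took part of the reads of these cells was not tested.

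In B cells Ighm and Ighd were the leading classes, and Ighd was found in fewer Butyrate than RA cells once depth was made equal. The gate held 3384 RA cells (49.0%) and 4988 Butyrate cells (60.5%), with medians of 4155.5 and 4580 UMIs. Ighm was found in 90.1% of RA and 90.4% of Butyrate B cells, and Ighd in 81.2% and 80.5%. After every cell was thinned to 1000 UMIs, which left out 12 RA cells, the shares were 61.8% and 61.9% for Ighm and 45.6% and 38.8% for Ighd. Both genes were found together in 78.7% of RA and 78.4% of Butyrate B cells.

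The level of Ighd was lower in the Butyrate library and that of Ighm was not settled. Ighd had 515 CPM in RA and 435 CPM in Butyrate B cells (ratio 0.844, 0.821 to 0.866), and 607 and 474 CPM (0.780) without cells that held Epcam or Cd3e. Ighm had 987 and 1035 CPM (ratio 1.05, 1.03 to 1.07), but 0.966 (0.947 to 0.986) without those cells, 0.977 as a mean over cells and 0.988 with cells thinned. There were 1.92 Ighm UMIs per Ighd UMI in the RA library against 2.38 in the Butyrate library. As a background, T cells without Epcam or Cd79a held 45.3 and 54.2 CPM of Ighm and 2.14 and 1.67 CPM of Ighd.

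Switched classes made up more of the Butyrate B cells. Among B cells with at least 10 constant-region UMIs, a switched class held most of them in 76 of 1222 RA cells (6.22%, 4.93% to 7.72%) and in 202 of 1967 Butyrate cells (10.3%, 8.96% to 11.7%). By the most abundant single class, Ighm led in 79.4% of RA and 78.9% of Butyrate cells, Ighd in 14.0% and 10.4%, and the IgG classes together in 4.39% and 7.26%. Ighg1 led in 31 of 1140 RA and 87 of 1886 Butyrate cells, Igha in 25 and 65, and Ighg2b in 18 and 49. No B cell was led by Ighe, which allows up to 0.263% in the RA library against 0.159% in the Butyrate library.

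**Figure D3:**
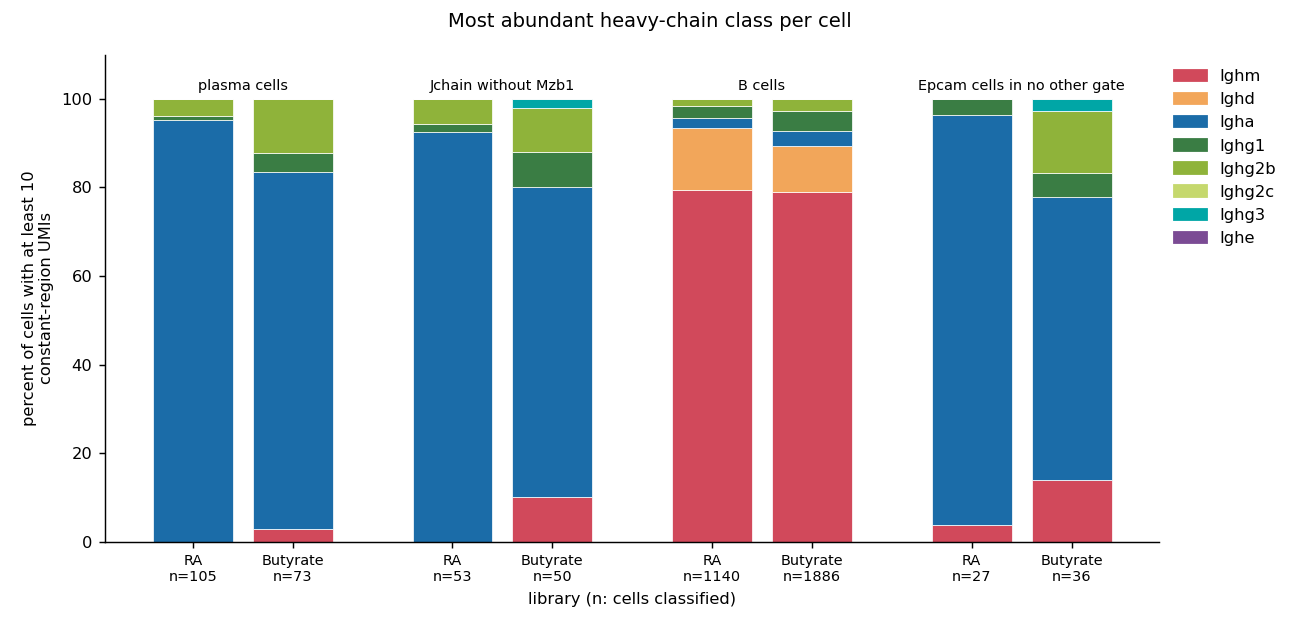
Stacked bars give the percent of cells (y axis) led by each heavy-chain class among cells with at least 10 constant-region UMIs, with 1 bar per library for plasma cells, cells with at least 20 Jchain UMIs but no Mzb1, B cells, and Epcam cells in no other gate; n is the number of cells classified. Igha fills 95.2% and 80.8% of the RA and Butyrate plasma cell bars, and Ighm 79.4% and 78.9% of the B cell bars.

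Of Igha and the IgG classes in B cells, Ighg1 had the highest ratio, and the direction of Igha was not settled. Ighg1 had 39.2 CPM in the RA and 70.0 CPM in the Butyrate gate (ratio 1.79, 1.64 to 1.95), 1.86 without the top cell of each library and 1.74 without cells that held Epcam or Cd3e. Jchain, held under 20 UMIs per cell by the gate, had 47.0 and 66.1 CPM (ratio 1.41). Igha had 69.0 and 75.3 CPM (ratio 1.09, 1.02 to 1.17), which turned to 0.605 as a mean over cells, 0.864 with cells thinned and 0.962 without cells that held Epcam or Cd3e. Ighg2b had 37.4 and 51.2 CPM (ratio 1.37, 1.25 to 1.4996). Ighg3, at 7.79 and 9.41 CPM (ratio 1.21, 0.985 to 1.49), and Ighg2c, under 1 CPM in both, had intervals that include 1.

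Scattered Igha UMIs in B cells were measured beside those of cells that make no antibody. B cells without Epcam or Cd3e held an Igha UMI in 16.7% of RA and 12.2% of Butyrate cells, at median depths of 4038 and 4433 UMIs. T cells held one in 16.6% and 10.1%, at 6064 and 6200.5 UMIs, and fibroblasts in 13.6% and 8.11%. With cells thinned to 1000 UMIs the shares were 4.67% and 3.98% in B cells against 2.96% and 1.39% in T cells. Cells with at least 10 Igha or Jchain UMIs numbered 32 and 88 among B cells and 0 among T cells, fibroblasts and endothelial cells. Without those cells Igha still had 49.0 and 33.9 CPM in B cells, above the 27.9 and 15.7 CPM of T cells and the 20.7 and 12.1 CPM of fibroblasts. Jchain had 43.4 and 38.7 CPM in B cells, against 13.9 and 5.42 CPM in T cells. There were 1.13 and 0.876 Igha UMIs per Jchain UMI in these B cells and 1.78 to 2.90 in T cells, fibroblasts and endothelial cells. B cells thus differed from these classes in CPM and in the proportion of the 2 genes. The unthinned shares of RA cells with an Igha UMI were close, at 16.7% in B cells and 16.6% in the deeper T cells. How much of the Igha gap in CPM came from the lower depth of B cells was not tested.

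By the rule of 2-fold, 2 of 10 members passed in B cells, Ighe and Pigr, both lower in the Butyrate library, beside 11.7% of all genes. Ighe rested on 18 RA and 11 Butyrate UMIs (ratio 0.377, 0.161 to 0.843), and its interval included 1 without the top cell of each library (0.463, 0.172 to 1.20). Pigr had 224 CPM in the RA and 100.5 CPM in the Butyrate gate (ratio 0.449), and 21.6 and 16.8 CPM (0.776) in B cells without Epcam or Cd3e. Epcam was found in 560 of the RA and 807 of the Butyrate B cells. Whether cells with both Epcam and Cd79a were doublets was not tested.

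Across 8 cell classes without overlap, Igha ranked plasma cells first by far. In the RA library its order was plasma cells (82554 CPM), myeloid cells (449), B cells (77.8), T cells (27.9), endothelial cells (27.1), fibroblasts (20.7) and epithelial cells (16.2), leaving aside cells of no class, which include secreting cells without Mzb1. The myeloid value rested on 1 cell, outside which 43 of its 538 UMIs lay. In the Butyrate library the order was plasma cells (34612 CPM), B cells (74.8), epithelial cells (70.9), myeloid cells (17.3), T cells (15.7), endothelial cells (14.3) and fibroblasts (12.1). The Butyrate epithelial value also rested on 1 cell, which held 622 of its 814 UMIs, and was 16.8 CPM without it. The counting intervals of neighbours in the order overlapped among the last 4 classes of each library and between B and epithelial cells of the Butyrate library.

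Genes with the most similar pattern were ranked by Pearson correlation of log2(CPM + 10) over these classes in both libraries, 16 points that share libraries, among 13443 genes with at least 200 UMIs. The 10 members and all immunoglobulin V, D, J and C genes were left out of the genes ranked. Nearest to Igha were Derl3 (0.920), Tnfrsf17 (0.914) and the calcium channel gene Cacna1s (0.913). Nearest to Ighm were the ion exchanger Slc9a7 (0.981) and Ero1lb (0.979), an oxidase that forms disulfide bonds. Nearest to Ighd were Fcmr (0.990), the receptor for the Fc part of IgM, Fcer2a (0.981), the low-affinity IgE receptor CD23, and the complement receptor Cr2 (0.977). Nearest to Pigr were Oit1 (0.993), Tstd1, the carbonic anhydrase Car1 and the epithelial transcription factor Elf3 (each 0.992). The likeness is a description and carries no p-value.

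**Figure D4:**
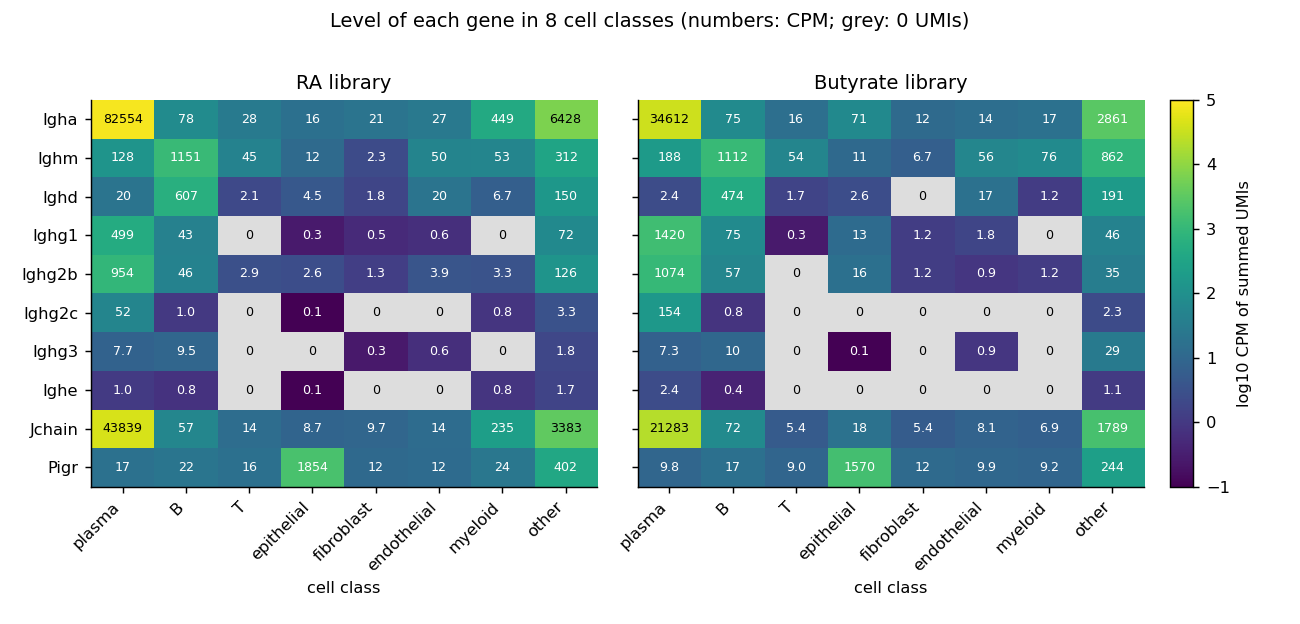
Colour and printed numbers give the summed CPM of each member (rows) in 8 cell classes without overlap (columns), 1 panel per library, on a log10 colour scale with grey for 0 UMIs. Igha and Jchain are highest in plasma cells, Ighm and Ighd in B cells and Pigr in epithelial cells, at 1854 CPM in the RA library against 1570.1 CPM in the Butyrate library.

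Pigr was an epithelial gene in both libraries and its summed level was lower in the Butyrate library. Epcam cells held 97.8% of all RA and 97.5% of all Butyrate Pigr UMIs. The gate held 1694 RA and 2092 Butyrate cells, 24.5% and 25.4% of kept cells. Pigr had 1294 CPM in the RA and 975 CPM in the Butyrate gate, a ratio of 0.754 (0.740 to 0.768). In epithelial cells without Cd79a or Cd3e, 885 RA and 982 Butyrate cells, it had 1854 and 1570.1 CPM (0.847, 0.830 to 0.864). The gap was thus smaller where cells with lymphocyte genes were left out.

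Single cells did not show the same order as the sums. Pigr was found in 73.8% of RA and 78.3% of Butyrate epithelial cells without Cd79a or Cd3e, and in 49.8% and 49.5% after thinning to 1000 UMIs. The median cell had 6.54 Pigr UMIs per 10000 in the RA library against 7.08 in the Butyrate library. The quartiles were 0 and 17.2 in the RA library against 1.58 and 15.3 in the Butyrate library, and the highest cells held 367 and 436 UMIs. The RA cells were thus spread more widely, and the sum and the median pointed opposite ways. The libraries also had unlike depth floors, and 49 of these RA cells but 0 of the Butyrate cells held under 1000 UMIs. Pigr per 10000 UMIs rose with depth, at a Spearman correlation of 0.436 in RA and 0.186 in Butyrate cells. The median mitochondrial share of these cells was 10.4% in the RA library against 14.4% in the Butyrate library. The part of depth or of the mitochondrial share in the Pigr level was not tested.

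Sums and medians pointed opposite ways in 3 of 4 subsets of these cells. Goblet cells (at least 20 UMIs of the mucin Muc2) had 1954 CPM of Pigr in the RA library against 1656 CPM in the Butyrate library (ratio 0.848), with medians of 9.88 and 11.2 per 10000 over 112 and 103 cells. Surface colonocytes (at least 3 UMIs of the water channel Aqp8) had 1397 and 1075 CPM (0.770), with medians of 6.67 and 7.60 over 268 and 434 cells. Sums were lower in the Butyrate library in both subsets while medians were higher. Dividing cells, with Mki67 or Top2a, had the highest sums at 2432 and 2073 CPM (0.852), and were the 1 subset where the median was lower too, at 19.3 and 9.50 per 10000 over 78 and 67 cells. The remaining cells had 1865 and 1657 CPM (0.888) with medians of 2.10 and 2.81 per 10000, and 45.4% of RA and 41.8% of Butyrate cells among them held no Pigr UMI. Among these remaining cells 46 RA and 0 Butyrate cells held under 1000 UMIs.

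**Figure D5:**
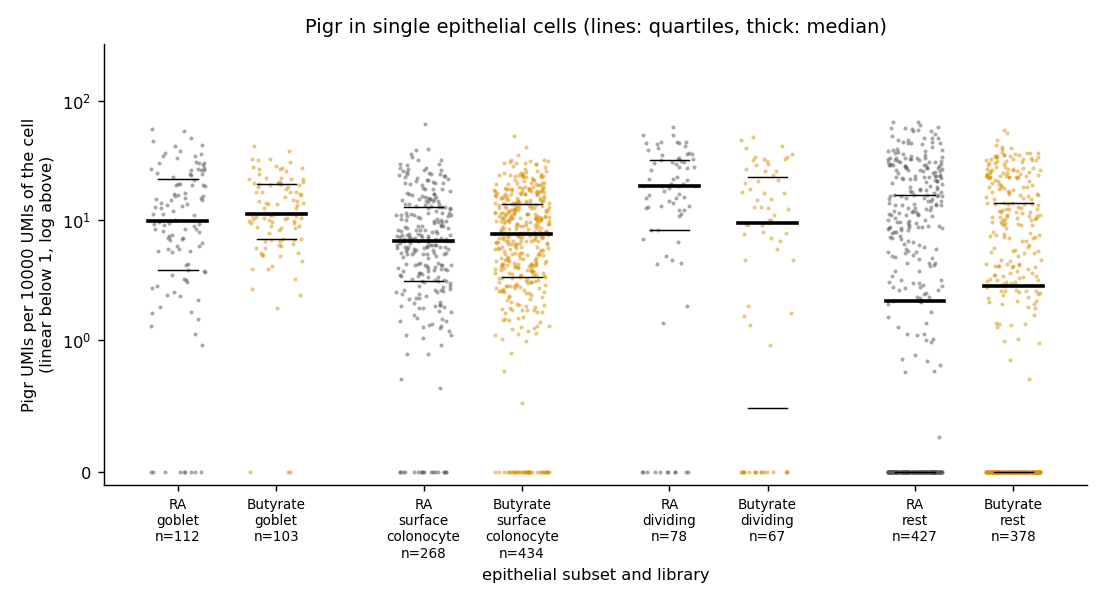
Each point is 1 epithelial cell without Cd79a or Cd3e, by subset and library (x axis), with its Pigr UMIs per 10000 UMIs of the cell (y axis, linear below 1 and log above); thin lines are quartiles and thick lines medians. Medians are 19.3 and 9.50 in RA and Butyrate dividing cells and lie closer in the other 3 subsets.

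Most Igha RNA of the Epcam gate came from plasma cells inside it, which held 126109 of 173399 RA and 49245 of 76905 Butyrate UMIs. Over all kept cells, those with at least 20 Jchain UMIs, with or without Mzb1, held 99.1% of RA and 97.2% of Butyrate Igha UMIs. Epithelial cells without Cd79a or Cd3e held 0.0765% and 0.848%. Igha had 8928 CPM in RA and 3552 CPM in Butyrate Epcam cells (ratio 0.398), but 80 RA and 53 Butyrate Epcam cells were also in the plasma gate. Epcam was found in 76.2% of RA and 72.6% of Butyrate plasma cells, whereas the keratin Krt8 was found in 18.1% and 19.2% and Krt18 in 8.57% and 9.59%. The cells in both gates held 32 RA and 16 Butyrate Pigr UMIs, 0.125% and 0.0739% of each library's Pigr. Most plasma cells thus held Epcam RNA and few held keratin or Pigr RNA, and the source of the Epcam RNA was not tested.

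By the rule of 2-fold, 5 of 10 members passed in Epcam cells, Ighm, Ighg2c and Ighg3 higher and Igha and Jchain lower in the Butyrate library, beside 7.49% of all genes. Ighm had 170 CPM in the RA and 484 CPM in the Butyrate gate (ratio 2.84), and a single Butyrate cell held 2790 of its 10480 UMIs. Cells also in the B cell gate held 2917 of the 3305 RA and 5316 of the 10480 Butyrate Ighm UMIs. Ighg3 had 1.60 and 17.2 CPM (ratio 10.8), and 316 of its 373 Butyrate UMIs came from 1 cell, without which and the top RA cell the ratio was 2.69. Ighg1 had 81.5 and 131 CPM (ratio 1.61), which turned to 0.830 without the top cells, and Ighg2b had 58.1 and 45.6 CPM (0.784), which turned to 1.57. Single cells thus decided the direction of Ighg1 and Ighg2b in this gate.

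Epithelial cells without Cd79a or Cd3e held little antibody RNA. Igha had 16.2 CPM in the RA library against 70.9 CPM in the Butyrate library, or 15.4 and 16.8 CPM without the top cell of each library (ratio 1.09, 0.880 to 1.34). In the Butyrate library 8 cells with at least 10 heavy-chain UMIs held 78.9% of all of them. An Igha UMI was found in 17.1% of RA and 10.5% of Butyrate epithelial cells, close to the shares in T cells above.

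The cells that held most of each isotype's UMIs were counted next. Igha had 235436 UMIs in kept RA and 96006 in kept Butyrate cells, and 45 and 25 cells held 50% of them. Cells with at least 20 Jchain UMIs held 99.1% and 97.2%. Ighm had 19336 and 37045 UMIs, spread so that 810 and 814 cells held 50%, and Ighd had 9810 and 13171, with 775 and 1091 cells. Few cells thus held most of Igha, and far more cells were needed for as much of Ighm or Ighd.

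For the other classes, 1 cell could hold a large part. The top cell held 36.3% of the 2360 RA and 45.8% of the 4750 Butyrate Ighg1 UMIs. For Ighg2b the top cell held 28.3% of 3946 and 26.0% of 3669 UMIs, and the top 10 cells 76.4% and 50%. The Ighm maximum was 86 UMIs in the RA library, while 2 Butyrate cells held 2790 and 1870, together with 1266 and 937 Jchain UMIs and no Mzb1 UMI. Both thus lay outside the plasma gate. Ighe, the class of allergy, had 33 UMIs in 14 RA cells and 27 in 17 Butyrate cells, with at most 11 in a cell that held 481 Ighg1 UMIs and 7 in a cell that held 1764 Igha UMIs.

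Genes of antibody secretion were measured in the same plasma cells, and the list includes Mzb1, which the gate itself used. Of 27 genes, 7 were higher and 20 lower in the Butyrate library, none by 2-fold, with a median log2 ratio of −0.39 beside 0.39 over all genes. The lowest were Tnfrsf17 at 0.521 (339 CPM in RA and 177 CPM in Butyrate cells), Sdc1 at 0.529 and the disulfide isomerase Txndc5 at 0.577, and the highest the chaperone genes Creld2 at 1.37 and Sdf2l1 at 1.27. With immunoglobulin genes left out of the total 26 were lower, 7 of them by 2-fold, where 447 of all 8581 genes were lower by 2-fold and their median was 0.016. Among cells with at least 100 Jchain UMIs, and with all genes in the total, 12 were higher and 15 lower (median −0.07 beside 0.19 over all genes). In the same cells with immunoglobulin genes left out of the total, 7 were higher and 20 lower (median −0.29 beside −0.03), none by 2-fold. On either total the count of lower genes thus moved with the Jchain threshold, while their median stayed below that of all genes.

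Homing receptors guide plasma cells to the gut wall. Of 13 such genes with enough UMIs in plasma cells, 9 were higher and 4 lower in the Butyrate library, 5 of them higher by 2-fold, with a median log2 ratio of 0.82, beside 1437 of all 8581 genes higher by 2-fold and a median of 0.39. With immunoglobulin genes left out of the total 3 were higher and 2 lower by 2-fold, beside 718 and 447 of all genes. Among cells with at least 100 Jchain UMIs 2 were higher and 1 lower of 11, beside 495 and 195 of 7938 genes. Itgb1, the integrin chain beta 1, had 45.8 CPM in RA and 212 CPM in Butyrate cells (4.62, 3.65 to 5.90), and the chemokine receptor Cxcr4 a ratio of 2.24. Ccr10, the receptor of colonic IgA cells, had 258 and 153 CPM (0.594, 0.509 to 0.693), and Itgb7, the gut-homing integrin chain beta 7, 0.845 (0.702 to 1.02).

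None of the class switching or IgA transport genes differed by 2-fold. Of 27 class-switch genes in B cells 12 were higher and 15 lower, with a median of −0.002 beside −0.089 over all genes. The transcription factors Batf and Runx3, the latter of which acts in switching to IgA, had ratios of 1.57 and 1.29. Of 30 genes of IgA transport and its induction in Epcam cells 17 were higher and 13 lower, with a median of 0.032 beside −0.019. Irf1, a transcription factor of interferon responses, had 106 CPM in RA and 137 CPM in Butyrate Epcam cells, with an interval of 1.23 to 1.37 for the ratio. Fcgrt, the neonatal receptor that carries IgG, and Il1r1, the interleukin 1 receptor, were the lowest, both at 0.662.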

How the data were processed

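Cells of the intestine were measured as 3′ UMI counts in 2 libraries, 1 per diet. Per the submitters' processing notes, the authors used Cell Ranger 6.0.1 and the mm10 genome, and the file headers name Cell Ranger 7.1.0; whether intronic reads were counted is not given in the sources used here. The deposited values are raw UMI counts per gene and barcode. Positions and transcripts come from GENCODE M21 (GRCm38), whose identifiers matched for all 10 genes.

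Counts were summed per gate and library and given as CPM with exact Poisson intervals (level 95%). Ratios carry exact conditional binomial intervals and shares Clopper-Pearson intervals. A count of 0 was limited at 3 counts. The leading class needed at least 10 constant-region UMIs and no tie. No main result removed doublets; as an alternative the highest Scrublet scores (scanpy 1.11.5), 0.8% per 1000 barcodes, were left out, which removed 672 RA and 685 Butyrate cells that had passed the filters. The script was tested on simulated counts. All 10 members were named, and of each gene list at most the 3 highest and 3 lowest ratios with at least 50 UMIs. Members and lists were chosen with earlier results of these data known. Python 3.11.15, numpy 2.4.6, scipy 1.17.1 and pandas 2.3.3 were used. Alternatives on filters, gates, thinning, the total, doublets and single cells were tried. Those at 100 Jchain UMIs, without the Mzb1 rule, without Epcam or Cd3e in B cells, outside the other gates, among cells led by Igha, without immunoglobulin genes in the total of all genes, and without the top cell for each member were chosen after seeing the data. Results of 2 genes are not reported here.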

Additional observations from a re-analysis of the deposited data

Results flagged for a closer look

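In 3 gates without overlap (plasma cells, B cells and Epcam cells outside both), 3 genes with at least 20 UMIs had counting intervals of the ratio of Butyrate to RA on opposite sides of 1, and the difference between gates was not tested. Igha stood at 0.419 in plasma cells, 1.09 in B cells and 0.527 in Epcam cells outside the other gates, but its B cell value turned to 0.605, 0.864 and 0.962 in the alternatives given in the report, so that these lay below 1 as in the other 2 gates. Ighg1 stood at 2.85, 1.79 and 0.416 in the same gates, where single cells held 2175 of the Butyrate plasma cell and 481 of the RA Epcam cell UMIs. Jchain, which the plasma and B cell gates use, stood at 0.485, 1.41 and 0.592. Without the top cell of each library the Epcam ratio of Ighg1 was 5.42, and those of Igha and Jchain were 0.506 and 0.568. This Epcam gate was not free of secreting cells without Mzb1. Its top Igha cell held 4128 Igha and 1991 Jchain UMIs in the RA library, and 3388 and 1915 in the Butyrate library. Neither held an Mzb1 UMI. Igha had 3645 and 1923 CPM in this gate, against 16.2 and 70.9 CPM in epithelial cells without Cd79a or Cd3e.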

How the results depend on the processing

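An alternative kept its size if its value lay within the counting interval of the main value, or within a set factor for numbers of genes. Over 90 alternative values 57 kept their size, 26 moved outside and 7 turned direction. The intervals of the alternatives were not used for this. Of the 7, only the Ighm ratio of 0.966 had an interval that excluded 1 (0.947 to 0.986). The means over cells had no interval. The ratio of plasma cell shares stayed between 0.472 and 0.686 in all 10 alternatives, although its interval reached 1.26 without cells holding Epcam or Cd3e. The difference in the share of cells led by Igha, −14.4 percentage points, was −4.87 with at least 50 Jchain UMIs. It was −27.0 (−49.5 to −3.07) without cells holding Epcam or Cd3e, where plasma cells were 0.362% of RA and 0.243% of Butyrate cells. The Igha ratio in plasma cells, 0.419, was 0.526 as a mean over cells, 0.324 without immunoglobulin genes in the total, 0.407 without the top cell, 0.519 with cells thinned, 0.352 and 0.514 at Jchain thresholds of 10 and 50, 0.200 without cells holding Epcam or Cd3e, 0.580 at 100 Jchain UMIs and 0.509 in cells led by Igha. In B cells the Ighm ratio of 1.05 was 1.01 at a 10% mitochondrial limit and 1.00 without high doublet scores, and turned to 0.977 as a mean over cells, 0.988 with cells thinned, 0.999 with at least 2 Cd79a UMIs and 0.966 without cells holding Epcam or Cd3e. In these settings other than the mean over cells, the Ighd ratio of 0.844 was 0.808, 0.811, 0.819, 0.802 and 0.780. The Igha ratio of 1.09 turned to 0.605, 0.864 and 0.962 as a mean over cells, with cells thinned and without cells holding Epcam or Cd3e. The Pigr ratio of 0.754 was 0.772 at the 10% limit, 0.867 with no limit, 0.787 as a mean over cells, 0.737 without immunoglobulin genes in the total, 0.846 with at least 1 Krt8 UMI and no lymphocyte genes, and 0.794 outside the other gates. With at least 50 UMIs per gene, fewer genes were tested, and the number of genes at least 2-fold different fell from 1637 to 1064 in plasma cells and from 1214 to 792 in Epcam cells. Apart from that minimum the cause of these shifts was not tested. No paired analysis was possible because each diet has 1 library. The precision of the plasma cell results is limited by 105 and 73 cells, and counting intervals hold no variation between mice.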
